A study of Mus musculus with 4 samples.

Results

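The levels of immediate-early genes were described in RNA of the dorsal root ganglion (DRG), which houses the cell bodies of sensory neurons. The group held the 10 genes Fos, Fosb, Junb, Jund, Egr1, Ier2, Arc, Npas4, Nr4a1 and Dusp1, found by gene symbol among 48431 genes, and all 10 had an entry. The tissue came from male wild-type mice carrying the strain label SW that had received methylglyoxal (MGO), a reactive aldehyde that arises from sugar breakdown, by intraperitoneal injection for 6 days (2 mg/kg). All 4 RNA libraries belong to this group, their age is not labelled, and the labels do not say whether they came from separate animals or from pools. Errors and p-values below therefore measure only how these libraries differ, and that may be technical. No vehicle-treated group was analysed here, so no value below measures a response to MGO.

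Immediate-early genes are transcribed within minutes of a stimulus, without the need for new protein synthesis, when calcium and growth factor signals reach transcription factors such as CREB and the serum response factor that already sit at their promoters. Their mRNAs are usually short-lived. In sensory neurons, Fos and Egr1 are widely used as markers of recent activity, and Jun is known for its part in the response to axon injury. Satellite glia, Schwann cells, fibroblasts and vascular cells of the ganglion can express many of the same genes, so bulk RNA does not tell which cells a transcript came from. In bulk tissue, fewer cells of a type and less RNA per cell cannot be told apart.

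Levels are given as CPM, reads per 1000000 reads of a library. The file header calls the values TPM, but within a library nearly every value was a whole number of equal steps whatever the gene's length (98.3% in the lowest library, with a tolerance of 0.05 steps). If a step is 1 read, the libraries held 10138773, 8975728, 5576820 and 7223787 reads in replicates 1 to 4, and a floor of 3 reads equals 0.296, 0.334, 0.538 and 0.415 CPM. Floors and intervals cover counting error only. The libraries were made with a kit that reads transcript ends, in which reads do not grow with transcript length, so genes were compared in CPM. CPM per kb of exonic sequence is given where genes are ranked. The libraries fell into 2 pairs. The 3 entries of an 18S ribosomal RNA locus took up 8.26% of replicate 3 and 10.8% of replicate 4, whereas both other libraries list them at 0. Pearson's r of log2(CPM + 1) across genes, which are not independent replicates, was 0.995 and 0.991 within the pairs and 0.959 to 0.962 between them. The origin of the split is not labelled, and each value below is given for all 4 libraries.

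The 4 upstream sequences printed here belong to the member with the second highest mean level (Dusp1), to 2 of middle level (Nr4a1 and Fos) and to the lowest (Npas4). They show the core of the cyclic AMP response element, TGACG or its reverse complement CGTCA, in capitals. RefSeq promoter sequences (GRCm38.p6) were found for 7 of the 10 members, namely Jund, Dusp1, Nr4a1, Fos, Junb, Fosb and Npas4. Each sequence is the 250 bases before the RefSeq start, read 5′ to 3′ on the strand of the gene. They lie at chr17:26508473-26508722 on the minus strand for Dusp1, chr15:101266596-101266845 on the plus strand for Nr4a1, chr12:85473640-85473889 on the plus strand for Fos and chr19:4989972-4990221 on the minus strand for Npas4.
Dusp1: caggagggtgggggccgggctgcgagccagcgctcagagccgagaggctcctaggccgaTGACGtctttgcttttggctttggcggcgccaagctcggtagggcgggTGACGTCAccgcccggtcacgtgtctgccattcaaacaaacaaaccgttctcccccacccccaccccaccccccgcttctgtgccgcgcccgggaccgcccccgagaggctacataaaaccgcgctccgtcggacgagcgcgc
Nr4a1: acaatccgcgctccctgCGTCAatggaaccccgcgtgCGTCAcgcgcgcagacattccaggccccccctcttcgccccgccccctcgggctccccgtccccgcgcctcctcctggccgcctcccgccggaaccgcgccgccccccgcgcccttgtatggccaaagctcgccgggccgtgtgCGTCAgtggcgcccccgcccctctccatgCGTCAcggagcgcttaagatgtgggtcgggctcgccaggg
Fos: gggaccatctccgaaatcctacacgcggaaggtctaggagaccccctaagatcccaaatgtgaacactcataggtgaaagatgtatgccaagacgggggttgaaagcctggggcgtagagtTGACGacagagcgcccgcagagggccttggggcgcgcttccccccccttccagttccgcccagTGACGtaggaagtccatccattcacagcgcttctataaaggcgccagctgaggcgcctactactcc
Npas4: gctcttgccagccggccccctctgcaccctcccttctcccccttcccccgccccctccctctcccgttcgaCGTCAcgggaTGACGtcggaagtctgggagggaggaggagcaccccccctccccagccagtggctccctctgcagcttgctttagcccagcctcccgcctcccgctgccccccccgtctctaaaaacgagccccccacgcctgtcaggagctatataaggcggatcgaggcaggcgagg

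On either strand, the core was found in 6 of the 7 member windows and in 17.8% of all 32851 windows of this length. Nr4a1 held 4 matches, Fos and Npas4 2 each, and Junb and Fosb 1 each. Dusp1 held 3, of which 2 overlap in its full element TGACGTCA, 143 bases before the start. This full palindrome stood in 1.55% of all windows. Jund held no match. The windows depend on the start chosen. Counted in bases from the RefSeq start, with negative values upstream, the GENCODE start of the gene lies at 0 for Fos, -6 for Fosb, 30 for Junb, -345 for Npas4, 1210 for Jund, -12577 for Nr4a1 and -53656 for Dusp1. The 6 windows with a core had a GC content of 58.4% to 74.4%, against a median of 52.4% over all windows. The part of base composition in the matches was not tested. TATAAA was present only in Fos among the 7, 33 bases before the start, and in 12.4% of all windows. The EGR site GCGNGGGCG was present in Nr4a1 and Fosb and in 4.70% of all windows. The AP-1 site TGANTCA and the CArG box of the serum response factor had no match in these 7 windows. Over all windows, 6.75% and 1.47% held a match. Bases further upstream and the promoters of Egr1, Ier2 and Arc were not searched, so the members may hold such sites there.

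Across the members, mean levels ranged over 3 tiers. Jund and Dusp1 lay above 200 CPM on average, Egr1, Nr4a1, Fos and Junb between 9.79 and 73.2 CPM, and Ier2, Arc, Fosb and Npas4 at 2.32 CPM or less. A level of 1 CPM or more in all 4 libraries was reached by 6 of the 10 members, against 26.49% of all genes listed. Of the others, Ier2 and Arc reached 1 CPM in replicates 1 and 2 only, and Fosb and Npas4 in none. The median of the 10 means was 15.5 CPM. The 7 members whose mean reached 1 CPM had a median of 57.1 CPM, beside 14.3 CPM over all 14817 such genes. Together the members held 0.0546%, 0.0506%, 0.0751% and 0.0669% of reads in replicates 1 to 4, of which Dusp1 and Jund made up 68.3% to 77.8%.

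**Figure D1:**
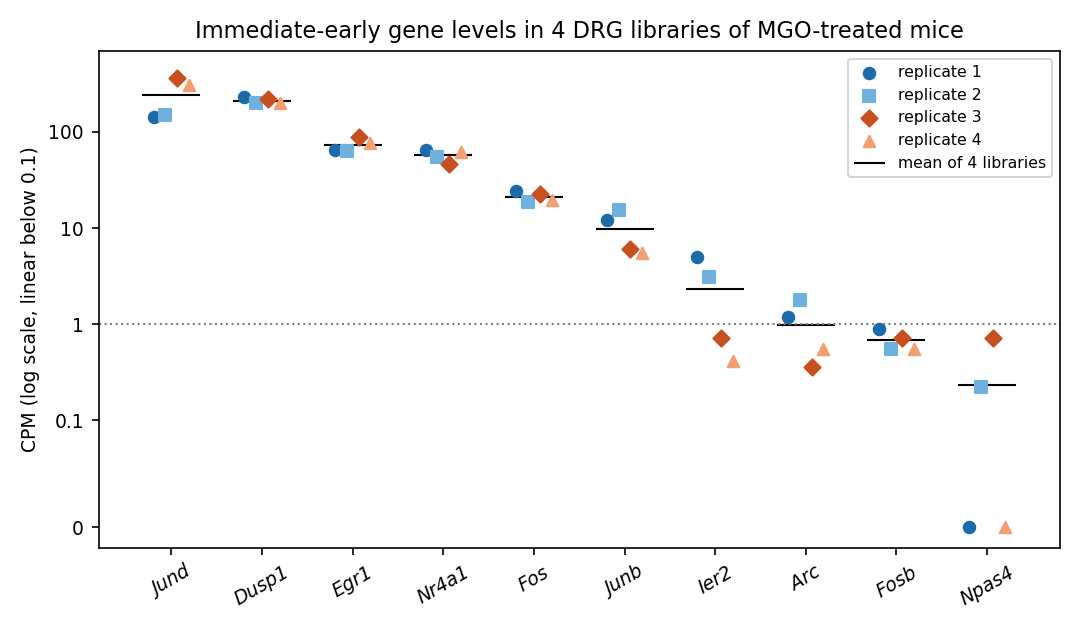
CPM of the 10 members (log axis, linear below 0.1) in the 4 libraries, with points for libraries and a line for their mean; the dotted line marks 1 CPM. Dusp1, Egr1, Nr4a1, Fos and Fosb lie close together over the 4 libraries, whereas Jund, Junb, Ier2 and Arc split between replicates 1 and 2 (blue) and replicates 3 and 4 (orange).

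The AP-1 transcription factors are dimers of a JUN protein with a FOS or another JUN protein. Jund, whose product is the JUN protein present in most resting cells, lies on chromosome 8 (70698949 to 70700616, plus strand, GRCm38) as a single exon of 1668 bases. It had 143 and 148 CPM in replicates 1 and 2 and 367 and 306 CPM in replicates 3 and 4, a mean of 241 ± 113 CPM (SD, n = 4). The 2 library pairs did not overlap, and replicates 3 and 4 were 2.31-fold higher. An antisense gene, Gm11175, shares 877 exonic bases with Jund but had at most 0.446 CPM.

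Junb, whose product is a JUN protein induced by stimuli, lies on the same chromosome (84974484 to 84978718, minus strand). It had 12.1 and 15.4 CPM in replicates 1 and 2 and 6.10 and 5.54 CPM in replicates 3 and 4, a mean of 9.79 ± 4.77 CPM. The direction was opposite to that of Jund, with replicates 1 and 2 2.36-fold higher and no overlap. The ratio of Jund to Junb was thus 11.8 and 9.65 in replicates 1 and 2 and 60.1 and 55.2 in replicates 3 and 4. The 3′ end of Junb lies within an exon of Prdx2, a peroxiredoxin gene on the opposite strand, with 173 shared exonic bases. Prdx2 had 351, 391, 83.2 and 80.7 CPM, lower in the same libraries as Junb, and reads of the 2 genes could not be told apart if the counting ignored strand. The part of Prdx2 reads in the level of Junb was not tested.

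Fos, the classic marker gene of neuronal activity, lies on chromosome 12 (85473890 to 85477273, plus strand). Its values were 24.3, 18.5, 22.4 and 19.7 CPM in replicates 1 to 4, a mean of 21.2 ± 2.62 CPM. The library pairs overlapped, with means of 21.4 and 21.04 CPM. Fosb (chromosome 7, 19302696 to 19310051, minus strand), the paralog that also encodes the long-lived ΔFosB protein, had 0.888, 0.557, 0.717 and 0.554 CPM, which stand for 9, 5, 4 and 4 reads. Its mean was 0.679 ± 0.159 CPM, and the exact 95% counting intervals of the 4 libraries overlapped (0.181 to 1.30 CPM in replicate 2, for example). Fos exceeded Fosb 27.3-fold to 35.5-fold within each library.

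Egr1 encodes a zinc finger transcription factor induced by growth factors and neuronal activity (chromosome 18, 34859823 to 34864984, plus strand). It had 64.4 and 63.6 CPM in replicates 1 and 2 and 88.8 and 75.9 CPM in replicates 3 and 4, a mean of 73.2 ± 11.8 CPM. The pairs did not overlap, but the difference was only 1.29-fold. Ier2, which encodes a small nuclear regulator of transcription (chromosome 8, 84661331 to 84662852, minus strand), had 5.03, 3.12, 0.717 and 0.415 CPM, or 51, 28, 4 and 3 reads. Its pair means of 4.07 and 0.566 CPM did not overlap. Summed over reads, Ier2 was 7.56-fold higher in replicates 1 and 2, with an exact 95% counting interval of 3.50 to 19.4.

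Nr4a1 encodes an orphan nuclear receptor, also called Nur77 (chromosome 15, 101254269 to 101274795, plus strand). Its values were 65.3, 55.04, 46.6 and 61.6 CPM, a mean of 57.1 ± 8.19 CPM, and the pairs overlapped. Dusp1 encodes a phosphatase that switches off MAP kinases and so limits the signals that induced it (chromosome 17, 26505590 to 26562128, minus strand). It had 230, 199.8, 218 and 199 CPM, a mean of 212 ± 14.9 CPM, with overlapping pairs. The coefficient of variation of Dusp1, 7.06%, was the lowest of the 10 members. Of the 8580 genes whose mean reached 10 CPM, 95.6% had a larger SD of log2(CPM + 1) than Dusp1, 85.0% a larger one than Fos, 78.7% than Nr4a1, 76.7% than Egr1 and 24.1% than Jund.

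Arc and Npas4, known mainly from neurons, were close to the detection floor. Arc, whose product acts at synapses (chromosome 15, 74669083 to 74672570, minus strand), had 1.18, 1.78, 0.359 and 0.554 CPM, or 12, 16, 2 and 4 reads. Summed over reads it was 3.13-fold higher in replicates 1 and 2, with a counting interval of 1.27 to 9.23. Npas4, an activity-dependent transcription factor found largely in neurons (chromosome 19, 4984355 to 4990316, minus strand), was listed at 0 in replicates 1 and 4 and had 0.223 and 0.717 CPM in replicates 2 and 3, which are 2 and 4 reads. The upper 95% bounds of the 2 zero counts were 0.364 and 0.511 CPM. Of the markers of sensory neurons, 10 of 10 were at 1 CPM or more in all libraries, with a sum of 11178 to 14075 CPM. The cause of the low levels of Arc and Npas4 was not tested.

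Members were ranked by the within-library difference of log2(CPM + 1). Every gene whose mean reached 1 CPM was set against each member in turn with limma, with Benjamini-Hochberg adjustment over all genes of a fit. Of the 45 pairs of members, 38 differed at an adjusted p under 0.05. Over all genes set against the 10 members, 84.9% of contrasts passed, so the share among the members is close to what a set of genes of different level gives. The order by mean was the same in CPM and in CPM per kb of exonic sequence for all 10 members, from 144 CPM per kb for Jund and 63.9 for Dusp1, over 16.3 for both Egr1 and Nr4a1, 9.02 for Fos, 4.25 for Junb and 1.52 for Ier2, to 0.317 for Arc, 0.109 for Fosb and 0.0568 for Npas4.

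Of the 9 steps between neighbours in the order, 4 passed, and in each the order held in 4 of 4 libraries. The level of Dusp1 was 2.89-fold that of Egr1, a step of 1.53 on the log2 scale with an SE of 0.17 (adjusted p = 0.000150 by limma). Nr4a1 stood 2.61-fold above Fos, a step of 1.38 with an SE of 0.23 (adjusted p = 0.000295 by limma). The step from Fos down to Junb was 2.21-fold, or 1.14 with an SE of 0.29 (adjusted p = 0.00799 by limma), and that from Junb down to Ier2 3.59-fold, or 1.84 with an SE of 0.29 (adjusted p = 0.00115 by limma). The pseudocount shrinks such folds for genes of low level, and with a pseudocount of 0.1 the last step was 5.55-fold. The ratio of Junb to Ier2 in CPM was 2.41, 4.93, 8.50 and 13.3 in replicates 1 to 4, so its size differed widely between libraries. Per kb of exonic sequence the same 4 steps passed, with log2 differences of 1.92, 0.78, 1.01 and 1.15.

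The other 5 steps did not pass. Jund and Dusp1 differed by a log2 difference of 0.06 (95% interval -0.83 to 0.96, limma adjusted p = 0.872). Their order turned between the library pairs, with a ratio of Jund to Dusp1 of 0.623 and 0.743 in replicates 1 and 2 and of 1.68 and 1.53 in replicates 3 and 4. When CPM was divided by exonic length, this step passed (log2 difference 1.04, limma adjusted p = 0.0269), since Dusp1 has 3311 exonic bases and Jund 1668 exonic bases. These lengths take all GENCODE exons of a gene. The GENCODE starts lie at -53656 bases for Dusp1 and 1210 bases for Jund from the RefSeq starts. The step per kb thus depends on the annotation, and the kit reads transcript ends. Egr1 and Nr4a1 differed by 0.35 (95% interval -0.17 to 0.87, limma adjusted p = 0.168), with Egr1 higher in 3 of 4 libraries. Per kb they differed by 0.00091, with Egr1 higher in only 1 of 4 libraries. At the low end, the steps from Ier2 to Arc, Arc to Fosb and Fosb to Npas4 had limma adjusted p-values of 0.309, 0.561 and 0.0673. These misses do not show that the levels were equal, and the last 3 steps rest on few reads. With the library pair as a term, which removes the split from the spread, 43 of the 45 member pairs and 7 of the 9 steps passed. Over all genes, 93.8% of contrasts passed in that fit. On the means of the 2 library pairs, 36 member pairs and 4 steps passed, beside 75% of contrasts over all genes. The 3 steps gained with the term did not pass on these means (limma adjusted p = 0.540 for Egr1 to Nr4a1, 0.663 for Ier2 to Arc and 0.350 for Fosb to Npas4).

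**Figure D2:**
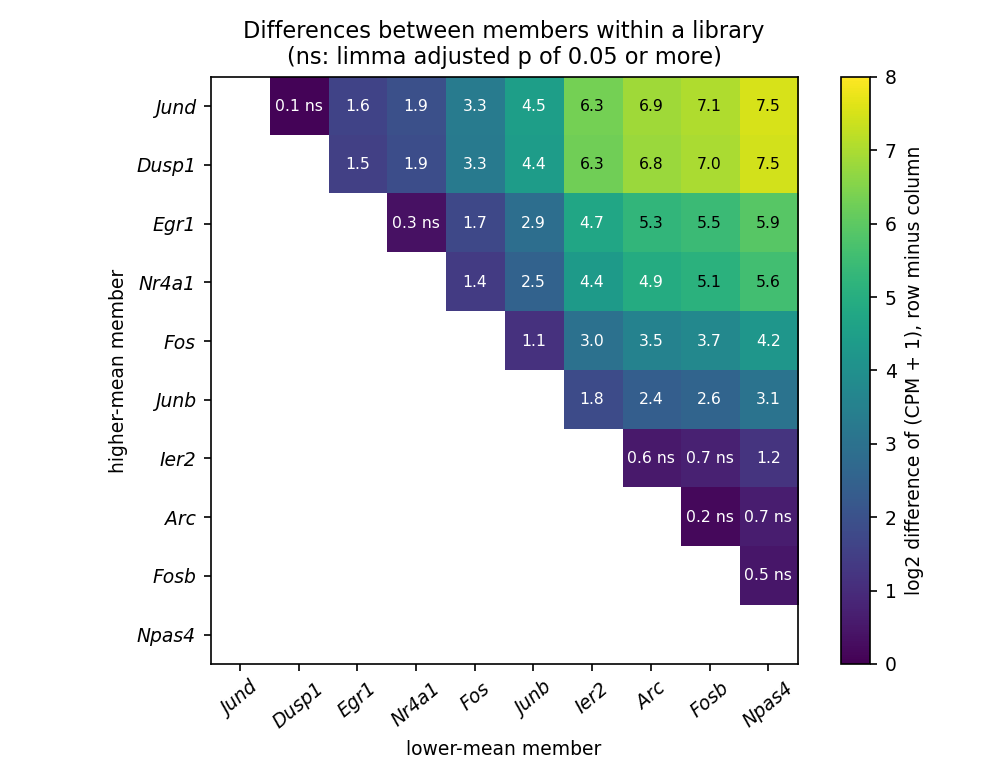
Differences of log2(CPM + 1) within a library between the member in the row and the member in the column, averaged over the 4 libraries, with ns for pairs that did not pass in limma. The 7 pairs marked ns are Jund and Dusp1, Egr1 and Nr4a1, and 5 pairs among Ier2, Arc, Fosb and Npas4.

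Set within their protein families, the members made up very different shares. In the JUN family, Jund held 38.8% and 39.3% of the reads of Jun, Junb and Jund in replicates 1 and 2 and 78.5% and 75.3% in replicates 3 and 4. Jun itself, which is no member of the 10, had 214 CPM in replicates 1 and 2 and 94.5 and 94.4 CPM in replicates 3 and 4, so Jun led the family in the former libraries and Jund in the latter. The family sum varied less, from 369 to 467 CPM. In the FOS family the makeup was alike in both pairs, with Fos at 58.7% to 61.6% and Fosl2 at 36.0% to 38.7% of the family in all 4 libraries. Fosb held 1.69% to 2.15%, and Fosl1 stayed at 0.395 CPM or less.

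Egr1 held 79.1% to 89.5% of the reads of the 4 EGR genes, followed by Egr2, a regulator of Schwann cell myelination, at 9.76% to 20.3%. Egr3 and Egr4 stayed below 1 CPM in all 4 libraries. In the NR4A family, Nr4a2 had the higher level in every library, 83.02 to 96.6 CPM, with Nr4a1 at 35.5% to 42.4% of the family and Nr4a3 at 0.439% to 1.77%. These shares are of CPM, not divided by transcript length, and take the transcript ends of family members as captured alike.

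**Figure D3:**
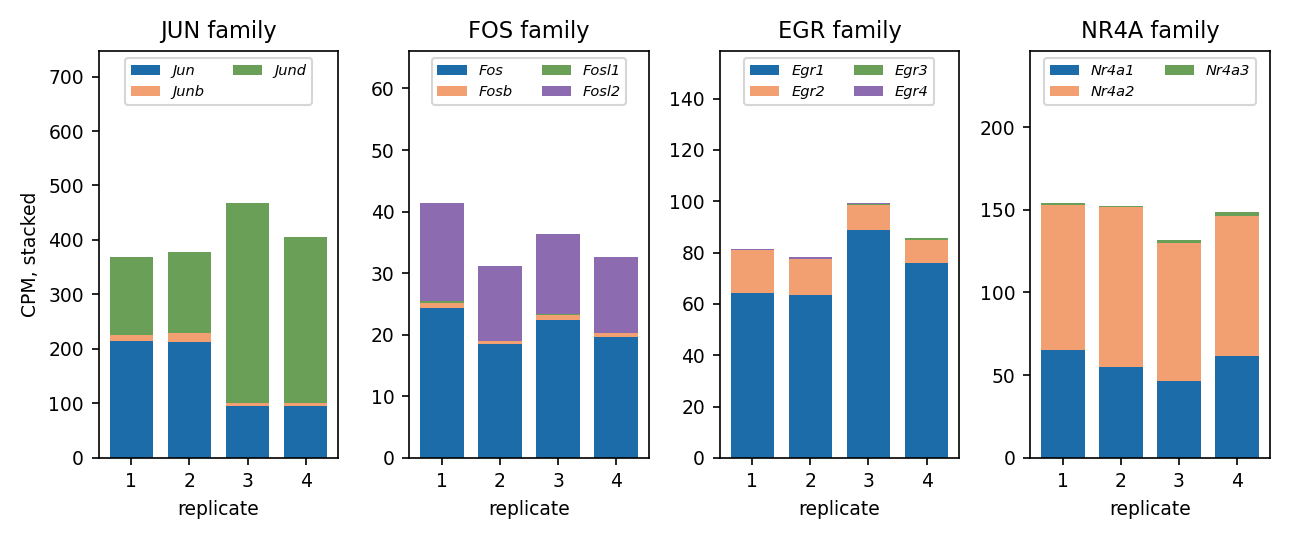
Stacked CPM of the genes of the JUN, FOS, EGR and NR4A families in each of the 4 libraries, with a separate axis from 0 for each family. Jund outweighs Jun in replicates 3 and 4 but not in replicates 1 and 2, whereas the makeup of the FOS family is alike in all 4 libraries.

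The library pairs were compared by a fixed description, with no test, because the split came from the libraries themselves. A gene was counted as parted when the values of the pairs did not overlap and their means lay at least 2-fold apart. Of the 10 members, 4 were parted, with Jund higher and Junb, Ier2 and Arc lower in replicates 3 and 4. Among the 7 members whose mean reached 1 CPM the count was 3, against 37.0% of all 14817 such genes, of which 12.8% were higher and 24.1% lower in replicates 3 and 4. Among the 5 members whose mean reached 10 CPM it was Jund alone, against 33.2% of genes (9.56% higher and 23.7% lower), and among the 9 whose mean reached 0.5 CPM it was 4, against 37.7% (13.8% higher and 23.9% lower). The members were therefore parted about as often as other genes of the tissue.

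The median gene whose mean reached 1 CPM had a log2 ratio of -0.18 between replicates 3 and 4 and replicates 1 and 2, and of -0.03 after rescaling without the 3 ribosomal RNA entries. Relative to that median, the log2 ratio was 1.38 for Jund, 0.54 for Egr1, 0.16 for Fos, 0.14 for Dusp1, 0.03 for Nr4a1, -0.01 for Fosb, -1.06 for Junb, -1.52 for Arc and -2.67 for Ier2. The relative values moved by 0.01 or less under the rescaling for these 9 genes. The ratios for Fos and Dusp1 not set against the median were -0.02 and -0.04 and became 0.12 and 0.10 under it, as the rescaling shifts all genes alike.

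**Figure D4:**
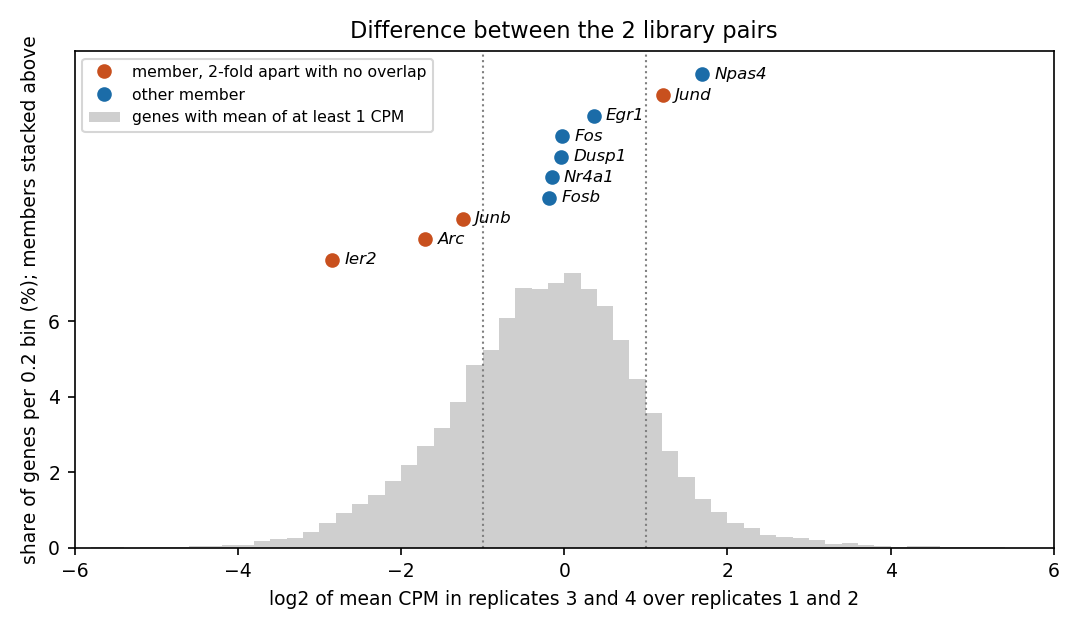
Log2 ratio of mean CPM in replicates 3 and 4 over replicates 1 and 2, for genes whose mean reached 1 CPM (grey bars, percent of genes per 0.2 bin) and for the 10 members (points, placed above the bars in order of the ratio); dotted lines mark 2-fold. Jund is to the right of 1 and Junb, Arc and Ier2 to the left of -1, while Npas4 rests on 6 reads and overlaps.

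Cell type markers also differed between the library pairs. The sum of 5 Schwann cell markers was 27568 to 28605 CPM in replicates 1 and 2 and 15014 to 15405 CPM in replicates 3 and 4, and that of 5 satellite glia markers 1149 to 1176 against 498 to 556 CPM. The 10 sensory neuron markers summed to 14057 to 14075 against 11178 to 12565 CPM, 6 fibroblast markers to 1765 to 1936 against 1319 to 1517 CPM, and 4 skeletal muscle markers to 757 to 768 against 377 to 440 CPM. The 3 blood markers stood at 701 to 815 against 187 to 221 CPM and the 6 macrophage markers at 205 to 255 against 151 to 154 CPM. Endothelial markers (5 genes) were slightly higher in replicates 3 and 4, at 148 to 151 against 128 to 134 CPM, and central nervous system glia markers (4 genes) were low throughout, at 7.13 to 9.32 CPM. Markers of a list did not always go the way of its sum. Of the blood markers, 1 was parted 2-fold higher and 2 lower in replicates 3 and 4. Of the endothelial markers, 1 was parted higher and 1 lower, and of the central nervous system glia markers 0 higher and 2 lower. No marker of the other lists was parted higher. None of the 48 markers was at 0 in all libraries. The part of these differences in the split of Jund, Junb, Ier2 and Arc was not tested.

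The other genes of the pathway were taken as 88 genes in 6 lists, and 74 of them reached 1 CPM in all 4 libraries. The share of all genes listed that did so is given with the members above. Of the 80 whose mean reached 1 CPM, 27 were parted between the library pairs, 11 higher and 16 lower in replicates 3 and 4, beside the 37.0% of all such genes. Among 20 other immediate-early transcription factors and regulators such as Ier5, 14 were detected throughout, with a median of 7.98 CPM. The highest were Jun (154 ± 68.8 CPM), Klf6, a zinc finger factor (116 ± 6.75 CPM), and Ier5 (92.5 ± 19.98 CPM), and the lowest was Fosl1 at 0 to 0.395 CPM. Jun, Myc (7.79, 6.24, 1.79 and 1.94 CPM) and Egr4 (0.296, 0.557, 0.179 and 0 CPM) were lower in replicates 3 and 4. Ier5l (5.33, 4.35, 11.3 and 12.3 CPM), Nr4a3 (1.18, 0.668, 1.79 and 2.63 CPM) and Egr3 (0.197, 0, 0.538 and 0.969 CPM) were higher. Egr3 and Egr4 lay near the floor of 3 reads, so their splits rest on few reads. The split of Nr4a3 also rests on few reads.

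Among 16 immediate-early effectors, most of whose products act outside transcription or on mRNA and growth, 14 were detected throughout. Bdnf, the gene of brain-derived neurotrophic factor, led with 95.95 ± 37.5 CPM, followed by Rgs2, an inhibitor of G-protein signalling (39.2 ± 13.3 CPM), and the kinase gene Sgk1 (33.1 ± 10.3 CPM), and Ptgs2, the gene of cyclooxygenase 2, had the lowest mean at 0.681 ± 0.453 CPM. Plk2, Plk3, Gadd45b and Gadd45g were 2.37-fold to 3.81-fold lower in replicates 3 and 4 without overlap. Homer1, which encodes a synaptic scaffold (8.09, 6.91, 23.1 and 15.2 CPM), and Sik1 (1.58, 0.668, 2.15 and 2.49 CPM) were higher. The split of Sik1 rests on few reads.

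Dusp1 had the highest mean when set beside a list of 12 other MAP kinase phosphatases and feedback inhibitors, not all of which act on ERK. Dusp6, a phosphatase of ERK in the cytoplasm, had 161 ± 27.2 CPM, Dusp5, a nuclear ERK phosphatase, 129 ± 87.6 CPM and the RAS pathway inhibitor gene Spred1 59.5 ± 8.89 CPM, while Dusp4 was the lowest at 0.351 ± 0.166 CPM. Dusp5 showed a wide split, with 52.8 and 54.4 CPM in replicates 1 and 2 and 199.9 and 210.4 CPM in replicates 3 and 4. It thus stood below Dusp1 in replicates 1 and 2 and about level with it in replicates 3 and 4. Dusp16 was higher in replicates 3 and 4 (2.24-fold), and Spry1 lower (2.37-fold, mean 1.23 CPM). Spry1 had 0.359 CPM in replicate 3, below the floor of 3 reads, so its split rests on few reads.

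Factors that act at immediate-early promoters were present throughout, with 15 of 16 at 1 CPM or more in all 4 libraries. The coactivator gene Crebbp (149 ± 43.2 CPM), Mef2a (92.6 ± 11.6 CPM) and Creb1 (76.2 ± 27.7 CPM) led, and Crtc2, a CREB coactivator, was the lowest at 1.09 ± 0.276 CPM. Srf, the gene of the serum response factor (27.8, 28.9, 12.9 and 11.2 CPM), and its cofactor gene Mkl1 (24.9, 27.2, 8.25 and 6.78 CPM) were lower in replicates 3 and 4, and Ep300 and Mef2c were higher (2.29-fold and 2.66-fold).

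Among 15 activating kinase genes, 14 were detected throughout and 8 were parted, beside 37.0% of all genes whose mean reached 1 CPM. Mapk3, the gene of ERK1, led with 3455 ± 1449 CPM and was 2.13-fold higher in replicates 3 and 4. Prkaca, which encodes a catalytic subunit of protein kinase A, had 1029.5 and 1196 CPM in replicates 1 and 2 and 91.6 and 93.9 CPM in replicates 3 and 4. Camk2d, a calcium and calmodulin dependent kinase gene (437 ± 174 CPM), was 2.04-fold higher in replicates 3 and 4. Map2k1, Map2k2, Rps6ka4 and Rps6ka1, the last with the lowest mean at 1.68 ± 1.04 CPM, were 2.24-fold to 3.95-fold lower there. Of 9 partners and corepressors, Arnt, whose product pairs with NPAS4, had 85.9 ± 18.5 CPM and the EGR corepressor genes Nab1 and Nab2 had 51.6 ± 7.45 and 28.0 ± 13.5 CPM. Nab2 was 2.33-fold higher in replicates 3 and 4, and Batf3, at 1.12 ± 0.596 CPM, was 2.00-fold lower. Batf3 had 1.87, 1.11, 1.08 and 0.415 CPM in replicates 1 to 4. Its split thus rests on few reads, and replicates 2 and 3 were nearly level. Batf, a basic leucine zipper partner of JUN proteins, had the lowest mean of this list, at 0 to 0.538 CPM.

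**Figure D5:**
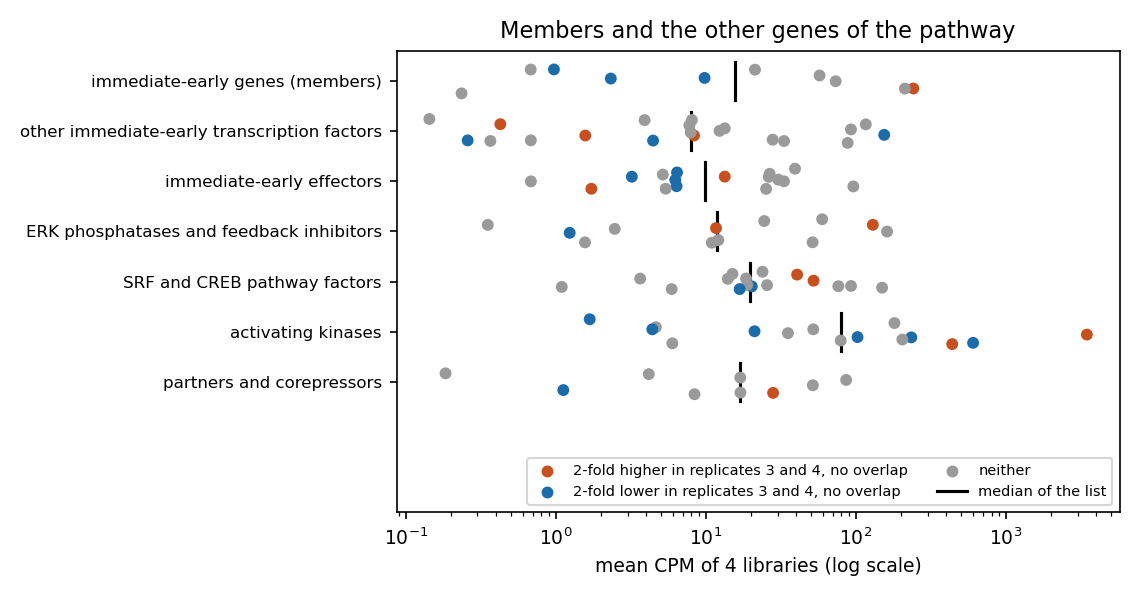
Mean CPM over 4 libraries (log axis) of the 10 members and of the 88 other pathway genes by list, with the median of each list as a black line and genes parted between the library pairs in colour. The median of the members, 15.5 CPM, lies among those of the other lists, from 7.98 CPM to 79.1 CPM. The lowest is that of the other transcription factors and regulators and the highest that of the kinases.

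Over the 4 libraries, each of the 5 members whose mean reached 10 CPM was also set against 8579 genes of that level by the root mean square distance of the centred log2(CPM + 1) profile. Nearest to Dusp1 were Adgrl2 (distance 0.0049) and Zfp688 (0.0074), and nearest to Fos were Trappc3l (0.017) and Lama2 (0.020). Lynx1 (0.0097) and Nsun4 (0.015) were nearest to Egr1, Jhy (0.019) and Uimc1 (0.026) to Nr4a1, and Podn (0.014) and Slc25a13 (0.020) to Jund. Among the 5 members themselves, Dusp1 and Fos were each other's nearest (0.065), and the nearest to Jund was Egr1 at 0.42. With 4 libraries that fall into 2 pairs, many genes share such a profile, and the distances only describe it.

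AU-rich elements in the 3′ untranslated region, with the pentamer ATTTA, are known to shorten the life of immediate-early mRNAs through proteins such as ZFP36. In the longest annotated 3′ untranslated region (GENCODE M21), 8 of the 10 members held ATTTA, against 72.0% of 12990 protein-coding genes whose mean reached 1 CPM. These shares were not matched for length. The regions of the members were shorter, with a median of 734 bases against 1272 bases for those genes. The median density of ATTTA was 1.76 per kb in the members and 1.37 per kb in those genes. The density was high in Dusp1 (5.80 per kb, above 96.0% of those genes), Nr4a1 (5.52, above 95.5%), Fos (4.91, above 93.8%) and Junb (4.12, above 90.4%). Ier2 and Arc held none, and Fosb had 0.434 per kb. The nonamer TTATTTATT was present in Dusp1 and Fos and in 8.58% of those genes. The 30-base windows with the most pentamers are shown for the 3 members with the highest density, with ATTTA in capitals.
Dusp1: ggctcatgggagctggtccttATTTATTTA
Nr4a1: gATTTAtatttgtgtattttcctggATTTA
Fos: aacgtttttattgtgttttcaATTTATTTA
These 3 members were among those with stable levels over the 4 libraries. Junb, with a similar density, was parted, and so were Jund (1.88 per kb) and Ier2 and Arc, which held no pentamer. Egr1 (1.64 per kb), Npas4 (1.40 per kb) and Fosb (0.434 per kb) were not parted. A link between the density and the split was not tested.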

How the data were processed

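RNA libraries from DRG of MGO-treated mice (n = 4, 1 group) were used as deposited by the authors. Per the labels' protocols, TRIzol RNA was depleted of ribosomal RNA with RiboCop and made into Lexogen QuantSeq libraries. Per the submitters' processing notes, which name no roles, the builds were GRCm38.p4 and mm10 and the tools Cufflinks 2.2.1, TopHat2 2.1.1, FastQC 0.11.5 and Bowtie2 2.2.9. How strand and multiply matching reads were handled is not given in the sources used here. Values as deposited, TPM per the file headers, were used as CPM, since they are steps of a shared size. No count model was used, because some values were fractions of a step.

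Each column took the sample with its replicate number. Gene IDs were looked up in GENCODE M21 without their version, where 48052 of 48431 matched, and positions are GRCm38. Member pairs were tested with limma 3.58.1 in R 4.3.3 on log2(CPM + 1), intercept only, with moderated variance, two-sided, over genes whose mean reached 1 CPM plus all members, and with Benjamini-Hochberg adjustment in each fit. A pair took the fit against its higher member. A fit treats libraries as independent although they fall into pairs. The alternatives were each replicate left out, 2 rescalings, a pseudocount of 0.1, division by exonic length, no filter, the library pair as a term or as means, detection at 0.5 and 2 CPM and folds of 1.5 and 3.

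The members and lists were chosen with earlier results of these data known. Named genes were all members, the 3 highest and the lowest of each list, genes parted between the library pairs and the 2 nearest profiles (1 result under this rule is not reported here), and others shown for a gene family, an overlap or a comparison with a member were chosen after their values were seen. Python 3.11.15, numpy 2.4.6, pandas 2.3.3, scipy 1.17.1 and matplotlib 3.10.9 were used.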

Additional observations from a re-analysis of the deposited data

How the results depend on the processing

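Of 38 member pairs that passed, 36 passed in the same direction under all 11 alternatives. The count was 36 on library pair means, 37 to 40 with a replicate left out, and 43 with the library pair as a term. Over all genes, 75%, 80.9% to 83% and 93.8% of contrasts passed in these fits. The 2 rescalings change all genes of a library by the same factor, so they could hardly alter differences within a library. Ier2 over Npas4 was lost without replicate 1 or replicate 2 (adjusted p = 0.202 and 0.176) and on library pair means (0.251), and Jund over Egr1 was lost on library pair means (0.0779), each by limma. With a replicate left out, the log2 difference of Jund minus Dusp1 ran from -0.16 (without replicate 3; -0.12 without replicate 4) to 0.31, and that of Arc minus Fosb from -0.043 (without replicate 2) to 0.35. Neither step had passed. Fosb over Npas4 passed with a pseudocount of 0.1, without replicate 3 and in the fit with a library pair term, and Egr1 over Nr4a1 and Ier2 over Arc passed in that fit, but on library pair means these 3 steps had limma adjusted p-values of 0.350, 0.540 and 0.663. The causes were not tested.

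Mean levels moved by less than 1 SD in all 60 alternatives. With a replicate left out this was fixed in advance, since dropping 1 of 4 values cannot move their mean by 1 SD. The mean of Npas4 still went from 0.235 to 0.0743 CPM without replicate 3. That of Ier2 went from 2.32 to 1.42 CPM without replicate 1. Members parted between the library pairs stayed at 4 in all scalings and at 1.5-fold, numbered 4 or 5 with a replicate left out, and were 2 (Ier2 and Arc) at 3-fold. Parted pathway genes numbered 27 to 29 with a replicate left out, 47 at 1.5-fold and 10 at 3-fold. Detection at 0.5 CPM added Fosb. Depth limits Ier2, Arc, Fosb and Npas4, where differences of a few reads were not detectable. No paired analysis was possible because the labels give only 1 group.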
